A study of Mus musculus with 4 samples.

Results

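The kallikreins, serine proteases and inhibitors described here are 10 genes, Klk1, Klk15, Prss27, St14, Tmprss2, Sycn, Slpi, Spint1, Spint2 and Itih2, of the 18872 genes listed in the deposited tables. They were chosen by name, with their knockout and wild-type values known, so these values are a description of the 10 genes and carry no test. The libraries were made from RNA of primary colon epithelial cells. All mice had received 2% DSS (dextran sulfate sodium), which injures the epithelium of the colon, for 3 days. The first group was wild type and the other had the genotype EZH2-IEC-/-, a deletion of the histone methyltransferase gene Ezh2 in intestinal epithelium, here called knockout. Each group had 2 libraries. The labels used here give neither the strain, age and sex of the mice nor the promoter behind the deletion, and they leave unsaid whether replicate libraries stem from different mice. What the p-values below measure is therefore the spread among the libraries, which may be technical.

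Serine proteases of the trypsin type are made as inactive precursors and cut proteins after basic residues once activated. Kallikreins are secreted members, whereas matriptase (St14) and Tmprss2 are anchored in the cell membrane. Their activity is held in check by inhibitor families with distinct folds, among them the Kunitz domain of Spint1 and Spint2 and the WAP domain of Slpi. In gut epithelium matriptase and its Kunitz inhibitors are known for their part in barrier upkeep and in the activation of the sodium channel. Ezh2 is the catalytic subunit of Polycomb repressive complex PRC2, which silences genes and is known to favour CpG-rich start regions.

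The estimated counts of the 4 libraries summed to between 5037367 and 5446998. Ezh2 itself had counts of 105 and 102 in wild type, against 86 and 83 in knockout (log2 fold change -0.27 ± 0.17 SE, adjusted p = 0.217 in edgeR's quasi-likelihood test). The labels do not name the deleted exons of Ezh2, so its count is no check of them. All 10 epithelial markers were measured, led by Krt8 and Krt19 at 2826 to 3758 FPKM in group means. The summed level of the 10 was 8921 to 9280 FPKM in wild type and 10378 to 10745 FPKM in knockout. In edgeR 7 of the 10 were higher, Krt8 and Krt19 among them, and 2 were lower (5 and 2 by limma on log2(FPKM + 1)). The lower ones in edgeR were Epcam (log2 fold change -0.27 ± 0.08) and Cdh1 (-0.60 ± 0.07, edgeR adjusted p = 0.000148). Cdh1 was at 346 FPKM in wild type and 213 FPKM in knockout in group means. FPKM is a level scaled to transcript length and library total, so FPKM values can be set side by side between genes. Over all 13608 genes tested, 43.7% had an adjusted p under 0.05, 23.0% higher and 20.8% lower in knockout. With library totals in place of TMM factors, higher genes made up 42.4% of the calls in place of 52.5%, and 35.9% with limma on FPKM rescaled to equal totals. The median log2 fold change of all genes was -0.002 with TMM, -0.103 with library totals, -0.084 with limma on log2(FPKM + 1) and -0.147 on the rescaled FPKM.

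All 10 genes passed the filter on low counts. In knockout 4 of the 10 were higher (Slpi, Prss27, Tmprss2 and St14) and 6 were lower (Klk15, Itih2, Sycn, Klk1, Spint2 and Spint1). The libraries of the groups did not overlap for any of the 10, and all 10 had an adjusted p under 0.05 in edgeR, against 73.2% and 43.7% of all genes tested. Because the genes were chosen on this contrast, nothing is read from those counts. The median log2 fold change of the 10 was -0.51, also with Klk15 at its bound, and that of all genes tested was -0.002. The differences were of unequal size. For 6 genes the log2 fold change was beyond 2 in size, and for St14, Tmprss2, Spint1 and Spint2 it was under 1. In bulk libraries such as these, fewer cells of a type and less RNA per cell cannot be told apart.

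The order of the levels differed between the groups. In wild type Sycn was the most abundant of the 10, with a mean of 1816 FPKM and rank 13 among all listed genes. It was followed by Spint2 at 1225 FPKM (rank 38), Klk1 at 935 (rank 77), Tmprss2 at 265 (rank 281), Spint1 at 178 (rank 421) and St14 at 100.2 (rank 781). Slpi, Klk15 and Itih2 stood far lower, at 15.4, 12.6 and 7.0 FPKM, and Prss27 was near the limit of counting at 0.175 FPKM. In that order Slpi and Klk15 were neighbours whose libraries overlapped. In knockout Spint2 came first at 748 FPKM (rank 114), then Slpi at 466 (rank 182) and Tmprss2 at 368 (rank 228). Klk1, St14 and Spint1 followed at 129, 126 and 125 FPKM with overlapping libraries, and Sycn had come down to 40.9 FPKM (rank 2093). The FPKM of the 10 genes summed to 4428 and 4681 in wild type, against 1927 and 2087 in knockout. Sycn, Spint2 and Klk1 made up 87.1% and 87.5% of that sum in wild type and 45.5% and 46.0% in knockout.

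**Figure D1:**
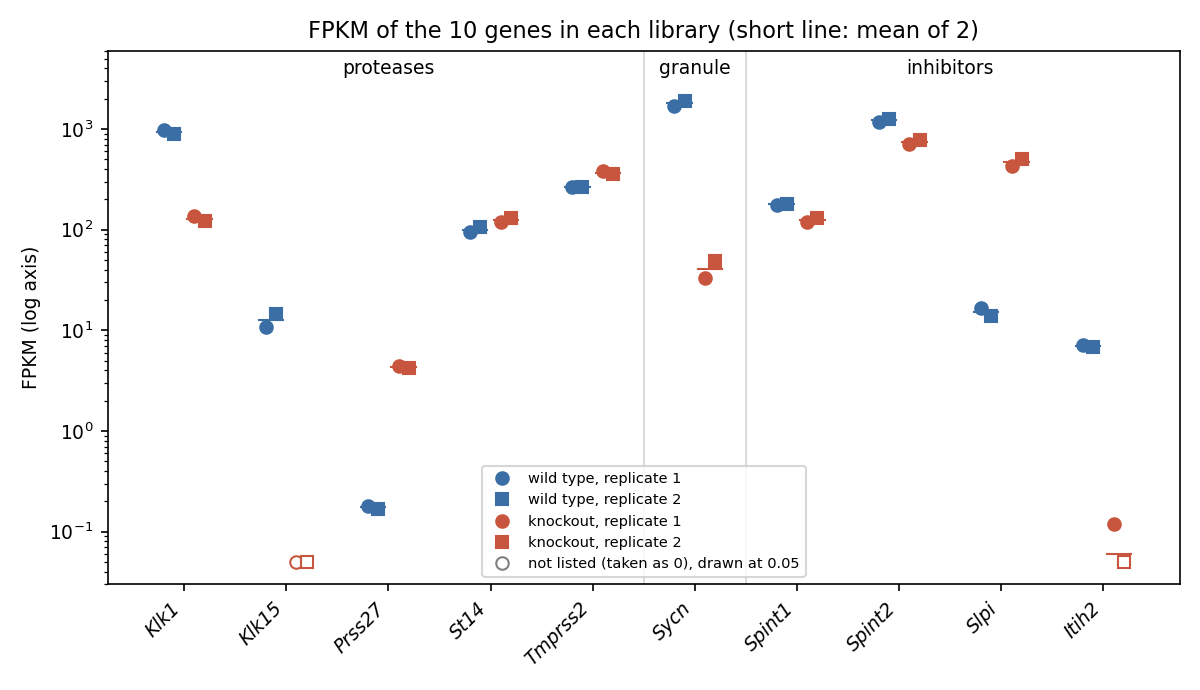
FPKM (log axis) of each of the 10 genes in the 2 wild-type libraries (blue) and the 2 knockout libraries (red), with a short line at each group's mean. Slpi moves from 14.0 and 16.8 up to 427 and 505 FPKM, Sycn from 1709.7 and 1922 down to 33.5 and 48.4 FPKM, while St14, Tmprss2, Spint1 and Spint2 stay within a narrow band, and open symbols stand for libraries in which a gene was not listed.

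The 250 bases before the start of transcription are shown for 5 of the genes, because they range from the lowest to nearly the highest CpG content of the 9 genes with an entry (St14 had none). CpG dinucleotides are in capitals. The sequences are from RefSeq's promoter table (GRCm38.p6), each 5′ to 3′ on the strand of its gene. Klk1 is at chr7:44225110-44225359 (plus strand), Klk15 at chr7:43931425-43931674 (plus), Sycn at chr7:28540635-28540884 (plus), Slpi at chr2:164356508-164356757 (minus) and Spint2 at chr7:29281978-29282227 (minus).
Klk1: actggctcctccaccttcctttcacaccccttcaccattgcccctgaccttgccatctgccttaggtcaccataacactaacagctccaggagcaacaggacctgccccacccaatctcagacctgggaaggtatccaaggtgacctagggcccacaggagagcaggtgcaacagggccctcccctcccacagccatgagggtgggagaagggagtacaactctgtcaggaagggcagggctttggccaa
Klk15: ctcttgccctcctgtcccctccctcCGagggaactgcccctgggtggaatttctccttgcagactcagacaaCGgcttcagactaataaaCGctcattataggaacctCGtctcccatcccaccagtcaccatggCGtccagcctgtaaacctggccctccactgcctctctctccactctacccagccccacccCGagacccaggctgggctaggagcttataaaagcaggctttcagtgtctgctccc
Sycn: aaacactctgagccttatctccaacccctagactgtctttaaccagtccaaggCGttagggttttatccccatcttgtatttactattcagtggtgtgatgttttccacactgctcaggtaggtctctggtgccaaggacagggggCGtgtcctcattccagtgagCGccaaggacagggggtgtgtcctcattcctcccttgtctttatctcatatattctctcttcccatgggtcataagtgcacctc
Slpi: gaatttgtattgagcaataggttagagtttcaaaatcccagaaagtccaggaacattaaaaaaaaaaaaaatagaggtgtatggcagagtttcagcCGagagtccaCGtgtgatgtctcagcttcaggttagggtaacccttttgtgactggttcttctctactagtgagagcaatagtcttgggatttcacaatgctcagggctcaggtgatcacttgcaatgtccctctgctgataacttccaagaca
Spint2: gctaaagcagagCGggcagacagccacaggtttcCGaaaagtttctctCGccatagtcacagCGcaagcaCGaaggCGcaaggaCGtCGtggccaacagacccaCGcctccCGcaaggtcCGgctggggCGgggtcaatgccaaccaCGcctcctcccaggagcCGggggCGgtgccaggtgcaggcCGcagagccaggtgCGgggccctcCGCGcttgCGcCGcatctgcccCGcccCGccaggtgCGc

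The Klk1 window held 0 CpG, that of Slpi 2, Sycn 3 and Klk15 6, whereas Spint2 held 24. Among all 32851 promoter windows of this length the median was 6, with quartiles of 2 and 16. Of the members not printed, Itih2 had 1 CpG, Prss27 3, Tmprss2 10 and Spint1 26. The windows of the 2 Kunitz inhibitor genes thus had more CpG than 90.4% (Spint1) and 88.0% (Spint2) of all windows. Of the 6 genes with log2 fold changes beyond 2 in size, 5 had 3 or fewer and Klk15 had 6. Among all windows 37.8% have 3 or fewer. Because the genes were chosen on this contrast, nothing is read from that count. The sequence TATAAA was found in the Klk15 window alone, starting 30 bases before the start on the gene's own strand, and 12.4% of all windows hold it on either strand. CCAAT was found in the Klk1 window alone, starting 139 bases before the start, and is in 33.8% of all windows. GGGCGG was present in the windows of Prss27, Spint1 and Spint2 and in 32.7% of all windows, where its CG also counts as a CpG. A narrow form of the NF-kB motif, TTCNNNGAA (a STAT motif) and TTTATGG (a CDX motif) were not found in the 9 windows. In that order, 1.4%, 7.0% and 2.4% of all windows hold them. The full NF-kB consensus, which allows more sequences, was not searched for, so its absence from the 9 windows is not claimed. These matches on either strand are a description of the letters only.

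Klk1, or tissue kallikrein, is the protease that releases kinins from kininogen, and it was the most abundant protease among the 10 in wild type. Its level was 969 and 901 FPKM in the wild-type libraries and 135 and 123 FPKM in the knockout libraries. Both knockout libraries were thus far below both wild-type libraries, by a log2 fold change of -2.75 ± 0.08 (6.74-fold). The replicate 1 files list 1 Klk1 transcript and the replicate 2 files list others as well, but within each replicate number the log2 ratio was nearly the same, -2.74 and -2.77. Klk15, a trypsin-like relative, had 40 and 56 counts in wild type (10.7 and 14.4 FPKM) and was not listed in either knockout library. Against a floor of 3 counts per library it was at least 15.7-fold lower in knockout.

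Klk1 and Klk15 lie in a single gene cluster on chromosome 7 that holds 26 protein-coding kallikrein genes in RefSeq's mouse table, with 0 other protein-coding genes among them. Of the 26, 14 were listed in at least 1 library and 3 had enough counts to be tested. The third was Klk14, at the far end of the cluster from Klk1. Its level was 59.0 and 47.3 FPKM in wild type and 43.55 and 65.25 FPKM in knockout, so the groups overlapped (log2 fold change 0.14 ± 0.18, adjusted p = 0.577 in edgeR). Its sign was not stable: without knockout replicate 1 it passed as higher (0.40, adjusted p = 0.0369), while it was -0.18 without knockout replicate 2, and -0.06 and -0.07 on FPKM rescaled to equal totals or quantile normalized. Klk1 stood 16.4 and 19.0 times above Klk14 in the wild-type libraries and 3.11 and 1.89 times above it in the knockout libraries. Between Klk15 and Klk1 lie 13 Klk1b genes, close copies of Klk1, whose counts summed to 7.91 and 6.75 in wild type, against 1.11 and 0.94 in knockout. Klk1 was the single member with counts that were not whole, as when reads are split between near copies, and the Klk1b values are uncertain. Klk10, a family member of stratified epithelia, had 0 counts in wild type and 5 and 4 in knockout, too few to be tested.

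**Figure D2:**
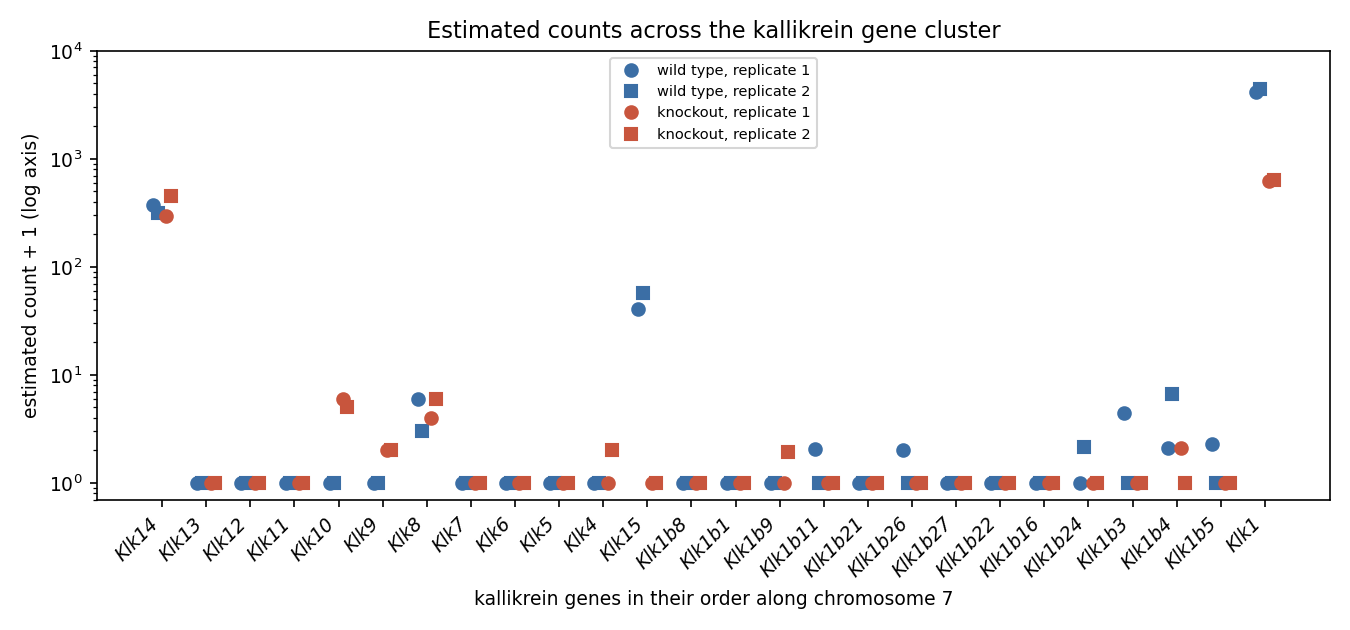
Estimated count plus 1 (log axis) of the 26 kallikrein genes in their order along chromosome 7, with the 2 wild-type libraries in blue and the 2 knockout libraries in red. Klk14 at the left end has overlapping groups, Klk15 in the middle and Klk1 at the right end are lower in knockout, and the genes between them stay under 6 counts.

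The membrane-anchored proteases differed little in comparison. St14, matriptase, activates other epithelial proteases at the cell surface. Its level was 94.4 and 106.0 FPKM in wild type and 119.5 and 132 FPKM in knockout. The highest wild-type library was below the lowest knockout library by a small margin, and the log2 fold change was 0.43 ± 0.09, but it was 0.25 on FPKM rescaled to equal totals and 0.14 on quantile normalized FPKM. Tmprss2, a protease known for cutting viral entry proteins, was at 267 and 263 FPKM in wild type, against 380.0 and 355 FPKM in knockout, a log2 fold change of 0.57 ± 0.07. It was 0.39 and 0.33 on the same pair of FPKM scalings. Both genes kept a positive difference under every scaling tried. Prss27, or marapsin, a tryptase-like protease, was counted once in each wild-type library and at 27 and 26 in the knockout libraries, which is 4.41 and 4.21 FPKM. The log2 fold change was 4.59 in edgeR and, shrunk by the pseudocount, 2.18 with limma on log2(FPKM + 1). The ratio of summed counts, scaled to the effective library sizes, was 26.9, with an exact Clopper-Pearson interval of 7.09 to 228 at 95%. That interval covers counting error only, and the level remained among the lowest of the 10.

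Sycn encodes syncollin, a protein of the zymogen granule membrane best known from pancreatic acinar cells. Its counts were 4568 and 5340 in wild type, against 96 and 140 in knockout, or 1709.7 and 1922 FPKM against 33.5 and 48.4 FPKM. Each knockout library was more than an order of magnitude below each wild-type library, with a log2 fold change of -5.37 ± 0.17. Other digestive zymogen and granule genes were followed through a list of 29, of which 18 were listed and 5 could be tested. In edgeR 4 of these 5 fell and 0 rose, and the median was -2.77, against -0.002 for all genes. At an unadjusted p under 0.05 likewise 0 were higher, and 0 were higher by DESeq2 or limma. Cela1, a pancreatic-type elastase, fell from 369 ± 8.08 to 20.9 ± 2.81 FPKM (SD, n = 2; log2 fold change -4.04 ± 0.12, edgeR adjusted p = 5.69e-08). Clps, the cofactor of pancreatic lipase, had 65 and 48 counts in wild type, against 4 and 0 in knockout and fell too (edgeR adjusted p = 0.000348). Gp2, a glycoprotein of granule membranes, fell by 2.77 ± 0.46 on the log2 scale (edgeR adjusted p = 0.00125), at only 2.46 FPKM in wild type. Zg16, a goblet cell lectin related to zymogen granule proteins, had a mean of 2921 FPKM in wild type and 2026 in knockout. Its log2 fold change was -0.43 ± 0.14 (edgeR adjusted p = 0.0325), a call that was lost with DESeq2 (adjusted p = 0.192), with no filter in edgeR (0.058) or limma (0.123), without wild-type replicate 2 (0.139) and without knockout replicate 1 (0.0656).

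Other than Cela1, the markers of pancreatic acinar cells were at or near 0 in these libraries. Amy2a5, Pnlip and Ptf1a were not listed in any library, and Cpa1, Ctrb1, Prss2, Cel, Cela3b and Rbpjl had at most 2 counts. Cela1 held nearly all of the acinar list's summed level, 375 and 364 FPKM in wild type and 18.9 and 23.6 FPKM in knockout. Sycn was 4.56 and 5.29 times the level of Cela1 in wild type and 1.77 and 2.12 times in knockout, so Sycn was the lower of the pair relative to wild type. Markers of the mature epithelial cells gave a mixed picture. Of 10 absorptive colonocyte markers 9 fell and 1 rose in edgeR, and their summed level was 6251 to 6695 FPKM in wild type and 2152 to 2661 in knockout, with Saa1 the most abundant in both groups, followed by Car4 in wild type and Car1 in knockout. Saa1, at 2343 FPKM in the wild-type mean and 1030 in the knockout mean, had counts that were not whole, so its part of the sum is uncertain. Of 10 goblet cell markers 4 rose and 2 fell in edgeR (1 fell by DESeq2, without wild-type replicate 2 or without knockout replicate 1), and their summed level was 8412 to 9037 FPKM and 7867 to 8549 FPKM, with Zg16 and Tff3 leading. The part of either cell type in the values of Klk1, Klk15 and Sycn was not tested.

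**Figure D3:**
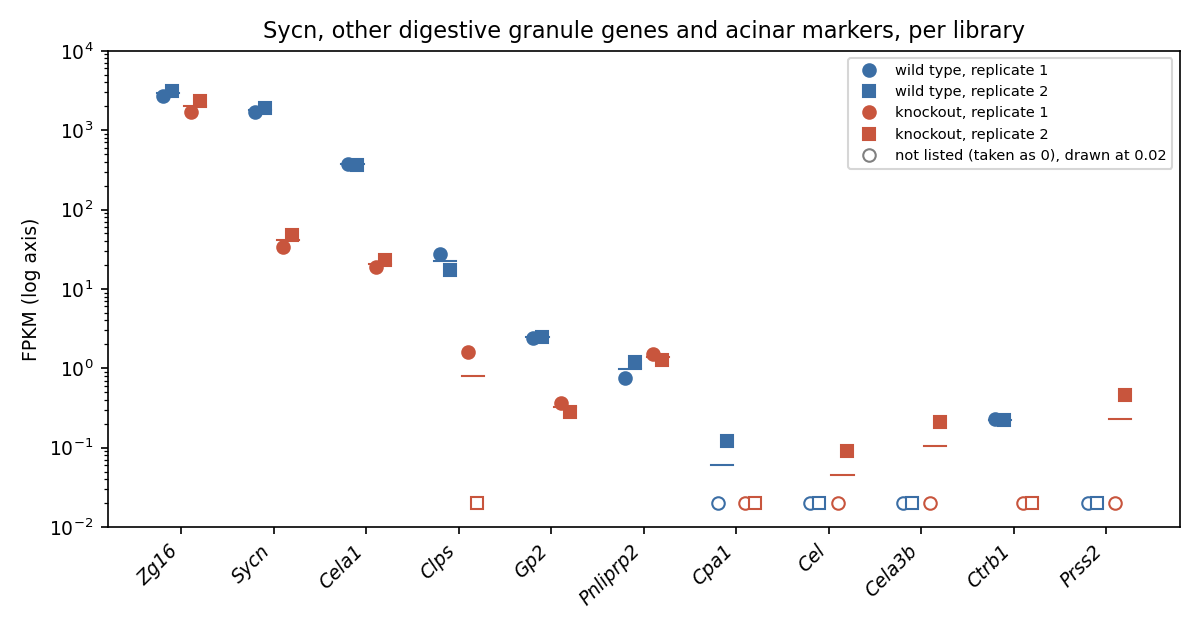
FPKM (log axis) of Sycn, the tested digestive granule genes and 5 markers of pancreatic acinar cells in each library, wild type in blue and knockout in red, with a short line at each group's mean. Sycn, Cela1, Clps and Gp2 are lower in both knockout libraries, and the acinar markers from Cpa1 to Prss2 lie under 1 FPKM or, as open symbols, were not listed.

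Of the 4 genes of inhibitor families among the 10, Slpi was the one that was higher in knockout. Slpi is a secreted WAP-domain inhibitor of neutrophil elastase and cathepsin G that mucosal epithelia and some leukocytes make. Its counts were 74 and 64 in wild type, against 2017 and 2407 in knockout, or 16.8 and 14.0 FPKM against 427 and 505 FPKM. The log2 fold change was 5.02 ± 0.14, and between the group means Slpi went from rank 4873 to rank 182. Neutrophil markers were higher in the same libraries. Of 10 such markers 5 could be tested, 4 rose and 0 fell in edgeR (0 fell also at an unadjusted p under 0.05 and by DESeq2 or limma), and their summed level was 7.31 and 11 FPKM in wild type and 176 and 153 FPKM in knockout. S100a8 and S100a9, which epithelium can also make, led that list at 93.8 and 41.9 FPKM in knockout. Ltf and Csf3r rose as well, with log2 fold changes of 5.89 ± 0.21 and 1.47 ± 0.32 (edgeR adjusted p = 2e-07 and 0.00514). Cxcr2 did not pass (0.39 ± 0.31, adjusted p = 0.339). Elane, Mpo and Ngp were not listed in any library, and Camp and Retnlg had at most 3 counts. Slpi alone was above the summed level of the whole neutrophil list in each knockout library. A sum of marker levels sets no limit on how much Slpi such cells hold. Macrophage and dendritic cell markers rose for 8 of 10 genes in edgeR, for 6 by DESeq2 and for 5 without wild-type replicate 1, with 0 falling, from 345 and 365 FPKM to 491 and 541 FPKM in sum, led by Lyz2 and C1qa. At an unadjusted p under 0.05, 9 were higher and 0 lower, and 0 were lower by DESeq2 or limma. The part of these cells in the Slpi values was not tested.

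Spint1 and Spint2, also called HAI-1 and HAI-2, are the Kunitz inhibitors that restrain matriptase in epithelia. Spint1 was at 177 and 180.0 FPKM in wild type, against 119 and 131 FPKM in knockout, a log2 fold change of -0.41 ± 0.08. Spint2 was at 1176 and 1274 FPKM in wild type, against 708 and 788 FPKM in knockout, a log2 fold change of -0.61 ± 0.08. Both were lower in each knockout library by a modest step. FPKM rescaled to equal totals or quantile normalized gave -0.59 and -0.70 for Spint1 and -0.79 and -0.78 for Spint2. Set against the proteases they act on, the levels within a library shifted further than those of either gene alone. Spint2 was 12.5 and 12 times the level of St14 in wild type and 5.92 and 5.98 times in knockout. Spint1 was 1.87 and 1.70 times that of St14 in wild type and 1.00 and 0.994 times in knockout. The summed level of Spint1 and Spint2 over that of St14 and Tmprss2 was 3.74 and 3.94 in wild type, against 1.66 and 1.89 in knockout. These ratios do not change with a single scaling factor per library, but they are made from values that chose the genes and are given as a description.

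Itih2 encodes a heavy chain of inter-alpha-trypsin inhibitor, a complex that binds hyaluronan in the matrix. Its counts were 115 and 112 in wild type, against 2 and 0 in knockout, from 7.23 and 6.77 FPKM. The ratio of summed counts, scaled in the same way, was 112, with an exact Clopper-Pearson interval of 30.6 to 928 at 95%. The fitted log2 fold change was -6.64 and rested on the 2 counts of knockout replicate 1, without which it was -9.83. Of its relatives, Itih5 fell by 1.43 ± 0.08 on the log2 scale, from 68.2 ± 3.04 to 23.7 ± 0.594 FPKM (SD, n = 2; edgeR adjusted p = 2.22e-06). Itih1 was not listed, and Itih3, Itih4 and the bikunin gene Ambp had 0 to 13 counts per library.

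The other genes of these families were followed through lists that leave out the 10. The list of other serine proteases also holds Cpa3, a carboxypeptidase and not a serine protease, which had too few counts to be tested. Of its 101 genes 66 were listed and 23 tested, of which 8 rose and 8 fell in edgeR (median log2 fold change -0.22). The most abundant in wild type were the tryptase-like Prss32, which fell from 762 ± 43.7 to 483 ± 27.0 FPKM (log2 fold change -0.55 ± 0.08), and Prss30, which fell from 179 ± 13.5 to 101.5 ± 15.6 FPKM (-0.72 ± 0.12). Their edgeR adjusted p-values were 0.000621 and 0.00124. Prss8, or prostasin, the partner of matriptase, was at 26.0 and 24.9 FPKM in group means and did not pass (log2 fold change 0.04 ± 0.10, adjusted p = 0.801). Tmprss4 rose by 0.54 ± 0.08 on the log2 scale, close to the value of Tmprss2, and at 159 FPKM in knockout it stood above Prss30, whereas the liver-type protease Hpn fell by 1.45 ± 0.32. The Hpn call was lost without wild-type replicate 2 (adjusted p = 0.0571). Prss16, a protease known from thymus, rose from 0.32 ± 0.07 to 4.14 ± 0.21 FPKM and the plasminogen activator Plat from 2.19 ± 0.47 to 10.1 ± 0.64 FPKM (edgeR adjusted p = 9.13e-05 and 4.63e-05). F10 also rose (1.35 ± 0.43, adjusted p = 0.0322), but not in 8 of 15 alternatives, among them those without wild-type replicate 1 (0.84) or knockout replicate 2 (0.81).

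Of the leukocyte granule proteases 3 of 21 were tested, and all 3 rose in edgeR, against 2 by DESeq2, where the call of the mast cell protease Cma1 was lost (adjusted p = 0.161). Cma1 also did not pass without any 1 of the 4 libraries (adjusted p = 0.0565 to 0.265). None of the 3 fell (0 at an unadjusted p under 0.05 and 0 by DESeq2 or limma). Gzma and Gzmb, the granzymes of cytotoxic lymphocytes, had log2 fold changes of 3.81 ± 0.42 and 5.18 ± 0.43 (edgeR adjusted p = 0.000123 and 2.65e-05). Their levels in knockout were 16.7 and 12.2 FPKM, low beside the epithelial proteases. T and NK cell markers, a list that also holds Gzma and Gzmb, rose for 8 of the 8 tested in edgeR and for 7 by DESeq2 and 7 by limma (0 fell by any of these or at an unadjusted p under 0.05; Trdc was not listed), with summed levels of 11.1 to 11.2 FPKM in wild type and 68.2 to 72.1 in knockout. Of 2 mast cell markers tested, Cma1 was the one higher in edgeR and Kit fell, and Mcpt4, Ms4a2 and Tpsab1 were not listed. The mast cell list summed to 8.83 to 10.9 FPKM in all libraries. Kit held 7.8 FPKM of that in the wild-type mean and 2.6 FPKM in the knockout mean. No steady level of mast cells is therefore read from the sum. Leaving out the leukocyte proteases and adding the 5 proteases of the 10 genes, serine proteases summed to 2621 and 2645 FPKM in wild type, against 1582 and 1654 FPKM in knockout. Klk1, chosen with its values known, held 969 and 901 FPKM of the wild-type sums and 135 and 123 FPKM of the knockout sums. These sums are therefore a description only. The 101 other proteases, leukocyte ones included, summed to 1283 and 1365 FPKM in wild type and 988 and 1073 FPKM in knockout.

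Of 106 other genes of serine protease inhibitor families 66 were listed and 28 tested, of which 11 rose and 9 fell in edgeR (median log2 fold change 0.21). They were grouped by family, and whether each product inhibits a protease was not tested. The families differed in their counts. All 4 tested Kunitz-domain genes other than Spint1 and Spint2 fell, namely App, Aplp2, Tfpi and Wfikkn2 with log2 fold changes of -0.80, -0.67, -1.12 and -1.75, and 0 rose (0 also at an unadjusted p under 0.05 and by DESeq2 or limma). App and Aplp2 are abundant membrane proteins best known from neurons, and Tfpi restrains the start of coagulation. The Tfpi call was lost without wild-type replicate 1 (adjusted p = 0.0696), and that of Wfikkn2 with DESeq2 (0.0562) and without knockout replicate 1 (0.0552). Among 15 tested serpins 9 rose and 1 fell (0 fell by DESeq2, and 2 without wild-type replicate 2 or knockout replicate 2). Rises above 2 on the log2 scale were those of Serpina3f, Serpina10, Serpina3g, Serpina3n and Serpinb6b, at 4.11, 4.06, 2.63, 2.37 and 2.12 on the log2 scale. The 2 largest rest on few wild-type counts and are imprecise. Serpina10 had 1 and 2 counts in wild type, against 32 and 21 in knockout (SE 0.59). Serpina3f had 5.41 and 3.32 in wild type, against 73.61 and 65.93 in knockout (SE 0.36). Counts of Serpina3f, Serpina3g, Serpina3n and Serpinb6b, members of families of near copies, were not all whole, so their values are uncertain. Of 4 tested WAP-domain genes other than Slpi, Wfdc18 rose by 2.07 ± 0.32, Wfdc2 fell by 1.00, Wfdc1 fell by 1.88, and Wfdc17 did not pass (0.87 ± 0.42, adjusted p = 0.126). Spink4, a Kazal inhibitor of goblet cells, rose from 440.2 ± 12.2 to 969 ± 17.6 FPKM (log2 fold change 1.24 ± 0.08, edgeR adjusted p = 5.99e-06). Spink1, which inhibits trypsin, was at 608 ± 32.6 and 660 ± 104.9 FPKM and did not pass (0.22 ± 0.11, adjusted p = 0.151), though it did without knockout replicate 1 (0.37, adjusted p = 0.0136). With Spint1, Spint2, Slpi and Itih2 added, the genes of these inhibitor families summed to 3770 and 3913 FPKM in wild type, against 3978 and 4284 FPKM in knockout. The FPKM of all genes was also higher in sum in knockout, at 519902 and 527226 against 491588 and 499523 in wild type. Slpi, chosen with its values known, held 427 and 505 FPKM of the knockout sums. No rise of the inhibitors as a whole is read from these sums.

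**Figure D4:**
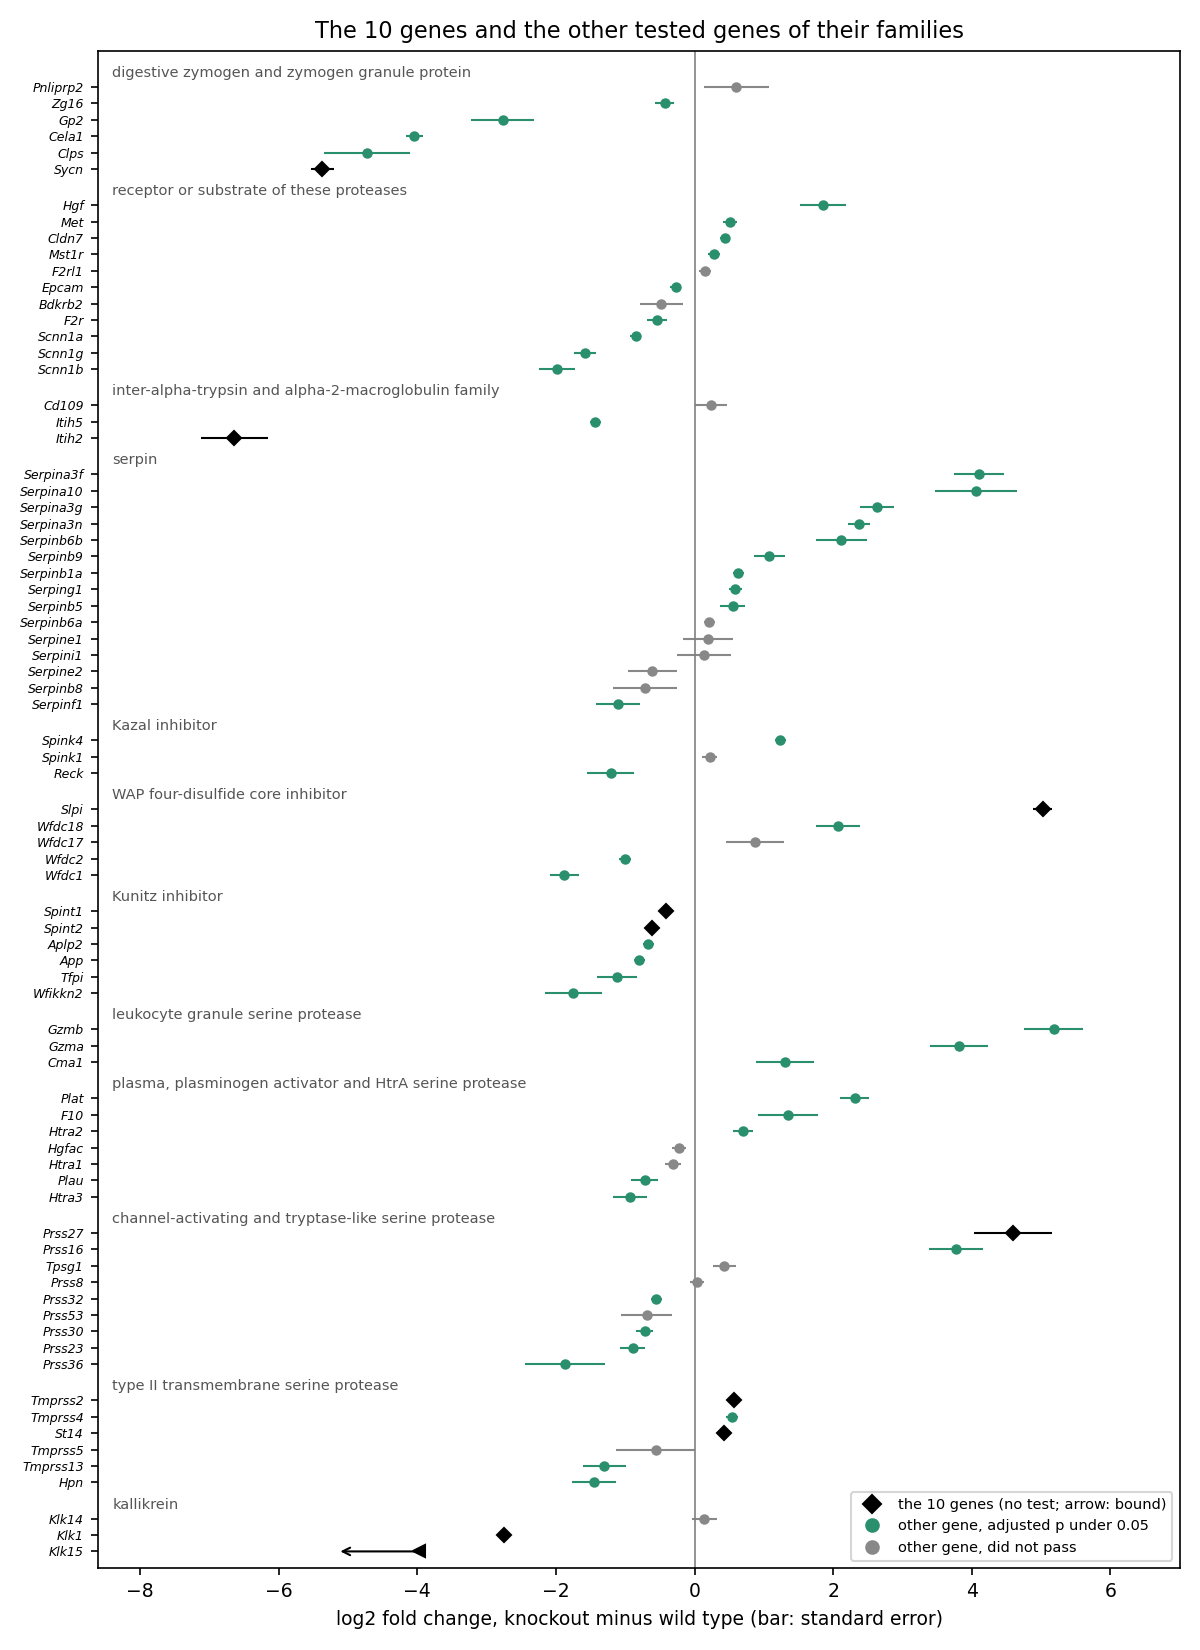
Log2 fold change, knockout minus wild type, with its standard error for the 10 genes (black diamonds, no test; the arrow for Klk15 starts at its bound of 15.7-fold) and for the other tested genes of each family (green past an adjusted p under 0.05, grey not). Kunitz inhibitors lie below 0, most serpins above it, and Klk14 sits near 0 beside Klk1 and Klk15.

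Receptors and substrates of these proteases were followed in a list of 18 genes, of which 11 were tested, 4 rose and 5 fell in edgeR. The 3 subunits of the epithelial sodium channel, which membrane-bound serine proteases can activate by cleavage, all fell. Scnn1a fell from 87.1 ± 3.61 to 45.05 ± 0.25 FPKM, Scnn1b from 13.1 ± 0.42 to 3.06 ± 1.44 and Scnn1g from 11.1 ± 0.34 to 3.46 ± 0.37 (SD, n = 2). Epcam, a matriptase substrate at cell contacts, was at 880.3 and 679 FPKM in group means (log2 fold change -0.27 ± 0.08, adjusted p = 0.0182 in edgeR), a call lost without wild-type replicate 1 (adjusted p = 0.136) or knockout replicate 2 (0.0885). Its partner Cldn7 rose by 0.44 ± 0.07, and the growth factor Hgf and its receptor Met rose by 1.85 ± 0.33 and 0.51 ± 0.10. Met did not pass with limma on FPKM with no filter (adjusted p = 0.0674) or rescaled to equal totals (0.0871). F2r, a thrombin receptor, fell by 0.54 ± 0.14, a call lost with DESeq2 (adjusted p = 0.0932) and without wild-type replicate 1 (0.0759). F2rl1, the receptor that trypsin-like proteases activate, was at 53.1 and 54.9 FPKM in group means and did not pass (0.15 ± 0.09, adjusted p = 0.193).

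Cells of other kinds were checked for the remaining families. Stratified squamous markers, whose tissue is a known source of kallikreins, marapsin and Slpi, summed to 4.82 and 6.26 FPKM in wild type, against 6.47 and 5.88 FPKM in knockout. Dsg3, Krt4, Krt6a and Trp63 were not listed in any library, and of the 2 markers tested Lor rose and Sbsn did not pass. The Lor call was lost without wild-type replicate 1 (adjusted p = 0.103) or knockout replicate 1 (0.101). Fibroblast and smooth muscle markers fell for 9 of 10 genes (0 rose, also at an unadjusted p under 0.05 and by DESeq2 or limma), from 2335 and 2515 FPKM to 1051 and 1347 FPKM in sum, with Tagln and Acta2 leading. Endothelial markers fell for 3 of 6 and erythroid markers for 3 of 3, with 0 rising in either list by any of these tests. Their summed levels were 20.5 to 20.9 FPKM against 12.4 to 13.7, and 93.1 to 118 against 13.1 to 27.2, with Pecam1 and Hba-a1 the most abundant in both groups and Slc4a1 not listed. By DESeq2 2 endothelial and 2 erythroid markers fell. Counts of Hba-a1 and Hba-a2 were not all whole, as when reads are split between near copies, and Hba-a2 stood at 0 in both knockout libraries. The values of these 2 genes are therefore uncertain. The endothelial count was 1 without wild-type replicate 1. B and plasma cell markers gave 2 higher and 4 lower of 8 (2 lower without either wild-type library or without knockout replicate 1), led by Jchain and Sdc1, at 301 to 319 FPKM in wild type and 345 to 422 in knockout. Paneth cell markers gave 2 higher of 3 tested (1 in 4 alternatives, among them those without wild-type replicate 1 or knockout replicate 1), led by Lyz1 in wild type and Mmp7 in knockout, at 19.45 to 19.98 FPKM and 47.1 to 53.8 FPKM, with the defensins Defa17, Defa21, Defa22 and Defa24 not listed. The part of these cells in the values of the 10 genes was not tested.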

How the data were processed

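Each library's table, as deposited by the authors, holds expected counts, estimated per gene and sometimes fractional, and FPKM values, per the file headers. Bowtie2, BWA and the human build hg19 are named, without roles, in the submitters' processing notes. The counting tool was not given in the sources used here. Entrez identifiers were matched to RefSeq's mouse gene table (GRCm38.p6) for 18820 of 18872 genes. A gene not listed in a file was taken as 0. Itih2 and Klk15 were therefore left out of the alternative restricted to genes whose transcripts match across files, as was Klk1. Spink3, an older name of Spink1, was dropped from its list.

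Expected counts were rounded and tested across all genes by the quasi-likelihood test of edgeR 4.0.16 under R 4.3.3 (TMM, filterByExpr, two-sided, Benjamini-Hochberg adjusted p under 0.05). The code was run on simulated data in which few genes changed, equally in both directions. Far more genes were called here, so that run does not check the scaling or error rate for these data. Standard errors were taken as the size of the log2 fold change divided by the root of its F statistic. Alternatives used DESeq2 1.42.0, limma 3.58.1 on log2(FPKM plus 1, 0.1 or 0.01), other filters and scalings, a replicate block, and leaving out each library. Replicates differed by more than sampling noise (chi-square over its degrees of freedom 4.19 in wild type, 5.01 in knockout) and were kept separate. At these totals, genes of few counts are imprecise, and intervals and floors cover counting error only.

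The 10 genes and the lists were chosen with earlier results of these data known. In each list the 6 called genes with the largest fold change at 1 FPKM or more, and the 2 most abundant, are named. For marker lists the 2 most abundant and the markers not listed are named. Klk10, Klk14, Prss8, Cpa3, Tmprss4, Itih1, Itih3, Itih4, Itih5, Ambp, App, Aplp2, Tfpi, Wfikkn2, Wfdc1, Wfdc2, Wfdc17, F2rl1, Cdh1, Car1, Ltf, Csf3r, Cxcr2 and the acinar and neutrophil markers with few counts were named after their values were seen.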

Additional observations from a re-analysis of the deposited data

How the results depend on the processing

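The sign of the log2 fold change was kept for each of the 10 genes under each of the 15 alternatives in which it could be fitted. Leaving out each library gave -2.78 to -2.74 for Klk1, -5.65 to -5.13 for Sycn, 4.89 to 5.15 for Slpi, 0.34 to 0.51 for St14, 0.52 to 0.63 for Tmprss2, -0.47 to -0.35 for Spint1, -0.68 to -0.54 for Spint2 -9.83 to -5.71 for Itih2 and 4.55 to 4.63 for Prss27. Klk15, with 0 counts in knockout, has a bound only, and its fitted value is set by the prior count. A pseudocount of 1 FPKM shrank the genes with few counts, to -2.92 for Itih2, 2.18 for Prss27 and -3.75 for Klk15, by its construction. Over all genes 3126 rose and 2824 fell. The count of higher genes was 2008 with limma on FPKM with no filter, where more genes are tested, and DESeq2 gave 2376 and 2003. With a library left out the higher genes numbered 2442 to 3053 and the lower genes 2133 to 2711. The other serine proteases that fell numbered 5 to 8 with a library left out (5 without either wild-type library), the receptors and substrates that fell 3 to 5 (3 without wild-type replicate 1), and the causes were not tested. The other counts of these 4 whole lists stayed within 1.5 times. Counts of single families and marker lists are small and moved further in places. By DESeq2 the serpins that fell went from 1 to 0, the plasma, plasminogen activator and HtrA proteases that fell from 2 to 1, the Kazal inhibitors that fell from 1 to 0, the goblet cell markers that fell from 2 to 1 and the mast cell markers that rose from 1 to 0. The labels do not say that a replicate number marks a shared animal or day. With the replicate block 3855 genes rose and 3548 fell, and same-numbered libraries deviated together (r = 0.291 across 12991 genes, which are not independent replicates, with 2 pairs). Among the protease, inhibitor, substrate and granule genes named with a test in the report, the block changed the call of Spink1 alone (0.21, adjusted p = 0.00203). The rescaled and quantile normalized FPKM were added after seeing the data. Depth limits Klk15, Prss27, Itih2 and the near-silent kallikreins most.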
